A study of Mus musculus with 2 samples.

Results

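The promoters described here are those of 337 mouse genes named Zfp followed by digits only, out of 22350 protein-coding genes of the autosomes and X in build NCBIM37. They are all the protein-coding autosomal genes of that name form in the annotation of this build, chosen by symbol and position with no measured value. The 337 gene IDs carry 333 symbols, since 4 symbols belong to 2 IDs each. A member was called clustered where at least 5 members had their transcription start sites (TSSs) within 1 Mb, which placed 152 members in 16 clusters on 7 chromosomes, and the other 185 were called single. Chromosome 7 held 86 members, 72 of them clustered.

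Chromatin immunoprecipitation sequencing (ChIP-seq) was done in 1 library with the M2 antibody to the FLAG tag and in 1 control library with IgG of normal mice. Both were made from untreated mouse embryonic fibroblasts of a 3T3 line that lack the gene Ccnd1 (Ccnd1-/-) and stably express FLAG-tagged cyclin D1, a G1 cyclin, from the retroviral vector MSCV. The protein is therefore driven by a vector and not by its own gene, and the labels do not say how many clones or cultures were used. The question is which DNA came down with the tagged protein in excess of the IgG control.

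Most Zfp genes encode proteins with arrays of C2H2 zinc fingers, small folds in which a pair of cysteines and a pair of histidines hold a zinc ion and which read DNA. Many also carry a KRAB domain, which recruits the corepressor TRIM28 and through it the histone methyltransferase SETDB1, and these proteins are known for silencing transposable elements. The family grew by tandem duplication, so many of its genes lie in clusters of close copies, and in most of them the last exon encodes the whole finger array. The symbol alone does not make a gene a member of this class: Zfp36 encodes tristetraprolin, a CCCH-finger protein that binds AU-rich elements of mRNAs.

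The following sequences are shown because they belong to promoters that carry the main results. They are the 250 bases before the TSS, read 5′ to 3′ on the gene's strand from the NCBIM37 genome. Zfp719 (ENSMUSG00000030469.8) is shown from chr7:50834730-50834979 on the plus strand and Zfp560 (ENSMUSG00000045519.8) from chr9:20189622-20189871 on the minus strand. Zfp251 (ENSMUSG00000022526.7) is shown from chr15:76701866-76702115 on the minus strand, Zfp948 (ENSMUSG00000067931.5) from chr17:21703760-21704009 on the plus strand and Zfp770 (ENSMUSG00000040321.3) from chr2:114027206-114027455 on the minus strand. Zfp719, Zfp560, Zfp251 and Zfp948 are clustered and Zfp770 is single. Capitals mark matches on either strand to any of GGGCGG (the GC box of Sp factors), CCGGAAG (an ETS site), ATGGCGG (a YY1 site), GCGCATG (part of the NRF1 site), TGACG (part of the CRE), CACGTG (an E-box) and TTGGCG (an E2F-like site). No motif contains another.
Zfp719: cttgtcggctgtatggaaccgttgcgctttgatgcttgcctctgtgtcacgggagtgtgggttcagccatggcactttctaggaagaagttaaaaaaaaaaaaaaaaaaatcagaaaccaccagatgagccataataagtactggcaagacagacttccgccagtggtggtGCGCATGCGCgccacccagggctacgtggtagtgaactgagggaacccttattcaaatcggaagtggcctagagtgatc
Zfp560: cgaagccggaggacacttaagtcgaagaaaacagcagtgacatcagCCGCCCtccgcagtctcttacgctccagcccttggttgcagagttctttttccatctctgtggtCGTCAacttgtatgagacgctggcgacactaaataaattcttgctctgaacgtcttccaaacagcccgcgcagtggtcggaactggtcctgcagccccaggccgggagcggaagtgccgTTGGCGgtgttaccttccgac
Zfp251: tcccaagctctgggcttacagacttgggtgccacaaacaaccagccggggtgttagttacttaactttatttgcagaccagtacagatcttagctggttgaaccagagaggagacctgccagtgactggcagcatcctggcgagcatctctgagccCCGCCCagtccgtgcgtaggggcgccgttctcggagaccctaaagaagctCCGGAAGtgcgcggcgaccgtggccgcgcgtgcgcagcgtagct
Zfp948: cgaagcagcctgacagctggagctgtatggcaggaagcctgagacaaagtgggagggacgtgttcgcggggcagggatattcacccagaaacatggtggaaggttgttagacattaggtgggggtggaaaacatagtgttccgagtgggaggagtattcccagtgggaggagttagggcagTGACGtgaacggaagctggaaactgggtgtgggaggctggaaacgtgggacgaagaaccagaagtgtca
Zfp770: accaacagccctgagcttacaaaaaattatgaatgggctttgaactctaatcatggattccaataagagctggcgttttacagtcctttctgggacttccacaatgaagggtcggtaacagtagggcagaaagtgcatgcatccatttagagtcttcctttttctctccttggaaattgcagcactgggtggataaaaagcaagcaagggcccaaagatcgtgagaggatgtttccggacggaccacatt
The Zfp719 stretch holds the NRF1 word on both strands, overlapping itself, and that of Zfp560 holds the GC box, the CRE word and the E2F-like word. Zfp251 has the GC box and the ETS word, Zfp948 has the CRE word, and Zfp770 holds none of the 7.

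From 250 bases before to 50 after the TSS, 20.8% of the 337 members held CCGGAAG, against 10.8% of all 22350 promoters. ATGGCGG occurred in 8.90% of members against 4.97% of all, and GCGCATG in 7.72% against 4.57%. These 3 words, of factors common at broadly expressed promoters, were thus more frequent in the members. TGACG was at 26.7% of members against 23.3% of all, GGGCGG at 38.9% against 43.5%, CACGTG at 7.12% against 7.79% and TTGGCG at 7.12% against 8.37%. Clustered and single members were alike in CCGGAAG, at 21.7% and 20.0%, but less so in CpG content: an observed over expected ratio of at least 0.6 within 500 bp was seen in 42.1% of clustered and 60.5% of single members, against 45.6% of all promoters. These shares describe letters in a window and are not evidence of binding.

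Anti-FLAG tags, the positions of sequenced fragments, were highest just upstream of the start sites of Zfp genes. Within 300 bp of the TSS, clustered members averaged 12.2 anti-FLAG and 4.14 IgG tags per kb and gene, and single members averaged 10.7 and 3.14. In the 22013 other protein-coding genes the values were 7.76 and 2.83. Against their own level at 4 to 5 kb, this was 2.92 times for anti-FLAG and 1.06 times for IgG in clustered members, 2.40 and 0.748 in single members, and 1.82 and 0.732 in other genes. The IgG dip over the TSS was thus narrow in clustered members: IgG fell to 2.30 tags per kb in the bin centred at -50 bp but reached 8.09 at -350 bp. Whether these profiles differ beyond the spread between genes was not tested.

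**Figure D1:**
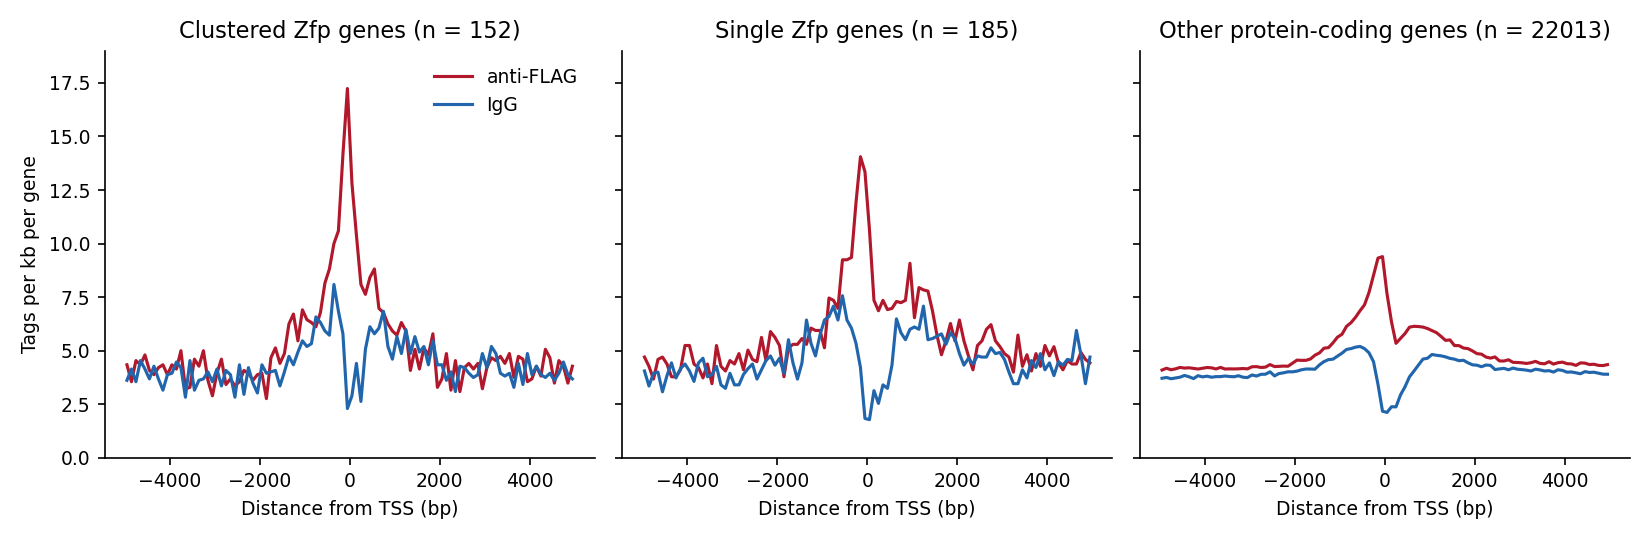
Tags per kb and gene in 100-bp bins against distance from the TSS (bp, direction of transcription positive) for anti-FLAG (red) and IgG (blue), in clustered Zfp genes, single Zfp genes and all other protein-coding genes. Anti-FLAG peaks at 17.2 tags per kb at -50 bp in clustered and 14.1 at -150 bp in single genes, while IgG dips over the TSS in all 3 panels.

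In total there were 9259840 anti-FLAG and 9312346 IgG tags. Since each antibody has 1 library, no result has a replicate check, each test on tags compares these 2 libraries and not the antibodies, and all intervals, at the 95% level, cover counting error only. As a check of the genotype, introns 1 to 3 of Ccnd1 held 1 anti-FLAG and 1 IgG tag, against 17.6 and 17.7 expected from the genome-wide means. The libraries covered GC-rich DNA differently also far from genes: in windows more than 10 kb away from any TSS, the scaled ratio of anti-FLAG to IgG tags was 0.677 where GC was 24 to 26%, 1.34 where it was 50 to 52% and 2.19 where it was 60 to 62%. Many results are therefore also given GC-corrected, that is, against the ratio of such distant windows of the same GC. Results given without it include the tag profiles, the regions of anti-FLAG excess, the groups around the cluster limit and the linker arrays. A value not called GC-corrected is uncorrected.

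Among promoters with enough tags to be tested, anti-FLAG tags within 1 kb of the TSS exceeded IgG tags about as often at Zfp genes as in general. The members together held 5780 anti-FLAG and 3438 IgG tags, or 8.70 and 5.17 per kb, against 6.54 and 3.97 per kb in all other protein-coding genes. Both libraries were thus denser at the members. The ratio of the summed tags was 1.69 (1.62 to 1.76) in members and 1.66 (1.65 to 1.67) in other genes. Of the 337 members, 245 had at least 20 tags in both libraries together and were tested. Anti-FLAG was higher at 63 of these, 25.7%, and at 0 it was lower (exact binomial test, 2-sided, with p adjusted over all tested promoters by Benjamini-Hochberg), against a background of 29.5% higher and 0.0913% lower. At an unadjusted exact p under 0.05, 95 of the 245 members differed, all 95 of them higher, against 4749 of all 10952 tested promoters, 4719 of them higher. A log2 ratio of at least 1, with 1 tag added to each count, was reached by 38.8% of tested members, against 44.3% of all tested promoters, and the median log2 ratio was 0.82 against 0.88. The 92 members under 20 tags stay outside these shares, and 4 of them, Zfp97, Zfp386, Zfp600 and Zfp781, named here after their values were seen, held 0 tags in either library. In those 4 windows only 0.450 to 15.0% of 36-base words occurred once in the genome, against a median of 98.5% over members. The tag minimum was reached by 245 of 337 members but by 10952 of all 22350 promoters, so the comparison depends on the denominator. Out of all genes, tested or not, 63 of 337 members and 3226 of 22350 promoters were called higher. More anti-FLAG than scaled IgG tags were held by 278 of 337 members and 17040 of 22350 promoters.

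The GC correction moved the values of Zfp promoters less than those of other genes. After it, the ratio of summed tags was 1.28 (1.22 to 1.33) in members and 1.19 (1.19 to 1.20) in other genes, and the median log2 ratio 0.43 against 0.34 over all tested. Of the 245 tested members, 1, Zfp948, was higher, 0.408% against a background of 1.06%, and 0 were lower, against 0.00913% (adjusted exact p). The median GC of the window was 49.2% in members, 47.5% in clustered and 50.2% in single ones, and 51.1% over all promoters. Within 500 bp of the TSS the recovery was sharper. There the members held 3405 anti-FLAG and 1442 IgG tags, a ratio of 2.38 (2.23 to 2.53) against 2.14 (2.12 to 2.15) in other genes, and GC-corrected 1.53 (1.44 to 1.63) against 1.33 (1.32 to 1.35). Sums give weight to genes with many tags, and their intervals leave out the spread between genes.

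Within 500 bp, 90 of 337 members and 3013 of all 22350 promoters had at least 20 tags. Anti-FLAG was higher at 52 of the 90 members, 57.8%, against a background of 62.6% (adjusted exact p), and lower at 0, against 0.0996%. Out of all genes, tested or not, 52 of 337 members and 1886 of 22350 promoters were higher. GC-corrected, 9 of the 90 members were higher, 10.0% against a background of 8.5%, and 0 were lower, against 0% of all. Because the windows are nested, the widths are not independent: 28 members were called at both, 24 at 500 bp only and 35 at 1 kb only, of which 33 were under the tag minimum at 500 bp. A region of anti-FLAG excess, called over local background along the genome, overlapped the 1-kb window of 38 members, 11.3% against a background of 7.42% of all promoters. Of these, 18 were clustered and 20 single. A region needs at least 10 anti-FLAG tags in 500 bp, and the part that the higher tag density of the members has in this count was not tested.

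**Figure D2:**
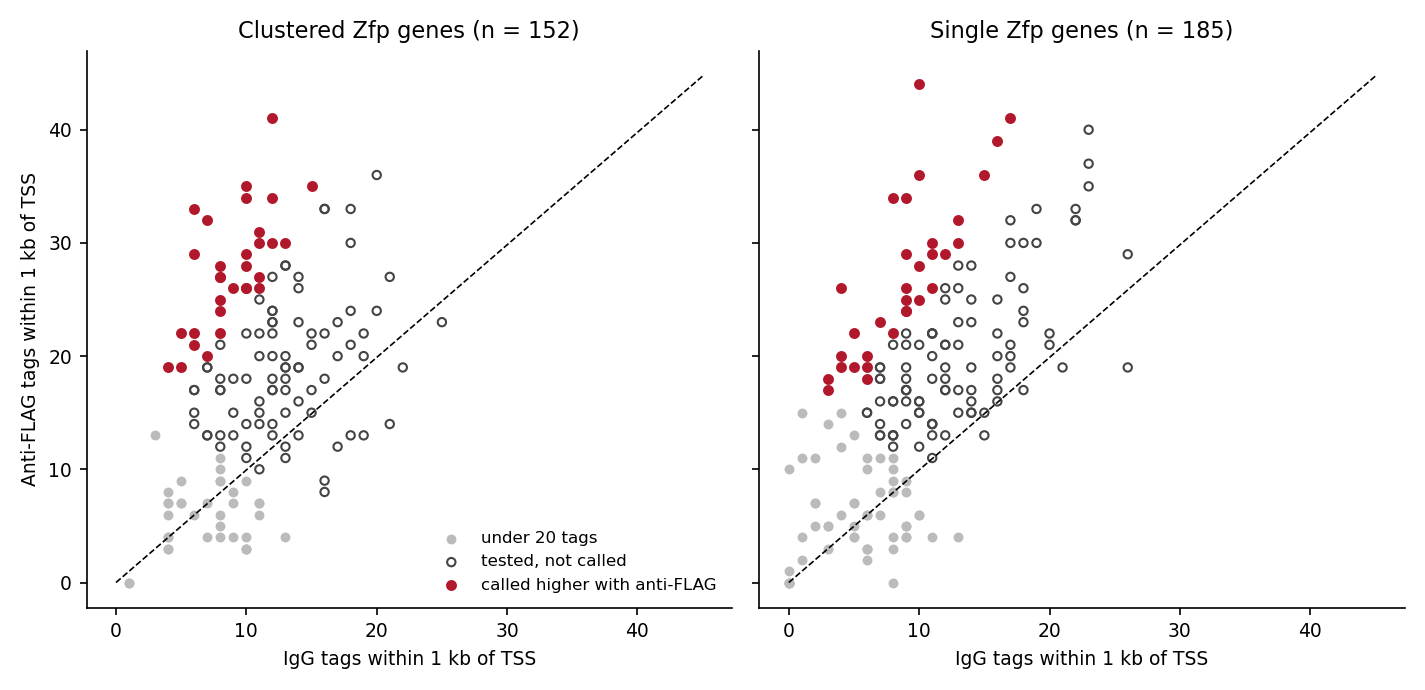
Anti-FLAG tags against IgG tags within 1 kb of the TSS for each clustered (left) and single (right) Zfp gene, with grey dots for genes under 20 tags, open circles for tested genes that did not pass and red dots for genes called higher. The dashed line marks equal counts after scaling to library totals. The 31 clustered and 32 single promoters called higher lie above it with 44 anti-FLAG tags at most.

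The promoters that passed the GC-corrected test at either width were 10, of which Zfp719, Zfp560, Zfp282, Zfp251 and Zfp948 are clustered and Zfp770, Zfp184, Zfp960, Zfp91 and Zfp454 single. Zfp719 had 28 anti-FLAG against 2 IgG tags within 500 bp of its TSS at position 50834980 of chromosome 7 (ratio 14.1, 3.55 to 122, adjusted exact p = 2.25e-05, GC-corrected 0.00196). Within 1 kb it had 34 against 10 tags, so that 28 of 34 anti-FLAG tags but 2 of 10 IgG tags lay within 500 bp of the TSS. Zfp560 had 23 against 1 tags within 500 bp of position 20189621 of chromosome 9 (ratio 23.1, 3.76 to 953, adjusted exact p = 5.01e-05, GC-corrected 0.00609). The width of these intervals comes from the 1 or 2 IgG tags.

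Zfp770, the promoter with none of the 7 words in the stretch shown, had 33 against 6 tags within 500 bp and 41 against 17 within 1 kb (GC-corrected adjusted exact p = 0.0163 at 500 bp). Zfp282, whose human counterpart is known to bind a regulatory element of a human T-cell leukaemia virus, had 22 against 3 tags within 500 bp (GC-corrected adjusted exact p = 0.0236). Zfp91, the gene of a zinc finger ubiquitin ligase of noncanonical NF-kB signalling, had 24 against 2 within 500 bp and 44 against 10 within 1 kb (GC-corrected adjusted exact p = 0.0318 at 500 bp). Its 44 anti-FLAG tags were the most of the 10 promoters. Zfp251 had 20 against 1 (0.0389) and Zfp454 21 against 3 (0.0422), both within 500 bp with the GC-corrected adjusted exact p in brackets.

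Limits attach to 3 of the 10. Zfp184 had 22 against 1 tags within 500 bp (GC-corrected adjusted exact p = 0.0208), but another annotated TSS lies within 2 kb and the tags cannot be assigned to 1 gene. Zfp960 had 28 against 6 within 500 bp (GC-corrected adjusted exact p = 0.0300), while only 54.3% of the 36-base words of its 1-kb window occur once in the genome, and with 37 against 23 tags it did not pass within 1 kb (adjusted exact p = 0.148). Zfp948 passed at 1 kb alone, with 35 against 10 tags (ratio 3.52, 1.71 to 7.97, adjusted exact p = 0.00276, GC-corrected 0.0463), and within 500 bp held 12 against 5, under the tag minimum. Its excess thus lay mostly outside the inner window, unlike that of Zfp719.

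The highest log2 ratios at 1 kb belonged mainly to GC-rich promoters. Among single members, Zfp335, the gene of a coregulator of nuclear receptors, had 26 against 4 tags (log2 ratio 2.44, adjusted exact p = 0.00121, GC-corrected 0.284), with another TSS within 2 kb. Zfp41 had 18 against 3 tags, Zfp618 17 against 3, Zfp384 20 against 4 and Zfp62 19 against 4. Zfp384 encodes a nuclear matrix protein that shuttles between the nucleus and focal adhesions. Among clustered members, Zfp579 had 33 against 6 tags (log2 ratio 2.29, adjusted exact p = 0.000484, GC-corrected 0.0847), Zfp771 19 against 4 and Zfp653 22 against 5. The last shares its window with another TSS. Zfp36, the gene of tristetraprolin, had 19 against 5 (adjusted exact p = 0.0205, GC-corrected 0.518). Zfp335, Zfp41, Zfp618, Zfp384, Zfp62, Zfp579, Zfp771, Zfp653 and Zfp36 passed without the correction and did not pass with it.

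The lowest tested promoters held more IgG than anti-FLAG tags, and none passed. Zfp850 had 8 anti-FLAG and 16 IgG tags (log2 ratio -0.91, adjusted exact p = 0.250), Zfp53 9 and 16, Zfp551 14 and 21 and Zfp956 13 and 19. These 4 are clustered, and the promoters of Zfp850 and Zfp53 were GC-poor, at 41.2% and 37.2% within 500 bp. The lowest single members were Zfp938 with 19 and 26 tags, Zfp605 with 13 and 15, Zfp958 with 19 and 21 and Zfp950 with 17 and 18. In all, 16 of the 245 tested members had a negative log2 ratio.

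Well-known members were read from a list chosen for their documented roles. Zfp809, which silences retroviruses by their proline tRNA primer binding site, had 34 anti-FLAG tags within 1 kb, against 12 IgG tags (log2 ratio 1.44, adjusted exact p = 0.00892). Zfp568, a repressor of a placental Igf2 transcript, had 25 and 8 (1.54, adjusted exact p = 0.0165), and Zfp110, a neurotrophin receptor-interacting factor, had 26 and 10 (1.30, adjusted exact p = 0.0308). These 3 are clustered. The single member Zfp143, an activator of genes of small nuclear RNAs and many others, had 30 and 13 (1.16, adjusted exact p = 0.0356), with another TSS within 2 kb. None of the 4 passed GC-corrected, with adjusted exact p of 0.196 for Zfp809, 0.292 for Zfp568, 0.323 for Zfp110 and 0.664 for Zfp143.

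Other well-known members did not pass at 1 kb. Zfp57, which keeps genomic imprints, had 22 anti-FLAG and 11 IgG tags (adjusted exact p = 0.125), Zfp217, whose human counterpart is amplified in breast cancer, 27 and 17 (0.229) and Zfp207, a spindle assembly factor, 30 and 17 (0.128). Zfp369, close in function to Zfp110, had 15 and 15. Zfp521, a regulator of progenitor cells, had 22 and 9 (adjusted exact p = 0.0595), Zfp148 21 and 9, Zfp462 17 and 9, Zfp106 19 and 17, and Zfp281, a repressor in pluripotent cells, 16 and 14. The related pair Zfp503 and Zfp703 had 14 and 7, and 15 and 10. Zfp42, the stem cell marker Rex1, had 4 and 9 and Zfp423, a preadipocyte factor, 4 and 1, both under the tag minimum. Other TSSs lay within 2 kb for Zfp207, Zfp148 and Zfp281.

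Clustered and single members did not differ in promoter recovery by a margin that held across widths and GC. Within 1 kb, 31 of 116 tested clustered members, 26.7%, and 32 of 129 tested single members, 24.8%, were higher (adjusted exact p), with median log2 ratios of 0.83 and 0.79. The summed tags were 2653 anti-FLAG and 1606 IgG in clustered members, a ratio of 1.66 (1.56 to 1.77), and 3127 and 1832 in single members, a ratio of 1.72 (1.62 to 1.82). The clustered ratio was thus 0.968 times the single ratio (0.888 to 1.05). GC-corrected it was 1.10 times (1.01 to 1.20), on ratios of 1.35 (1.27 to 1.43) in clustered and 1.22 (1.15 to 1.29) in single members. Within 500 bp it was 0.847 times (0.748 to 0.960), on 2.19 and 2.58, and GC-corrected 1.01 times (0.891 to 1.14), on 1.54 and 1.52. The sign of the difference therefore changed with the correction at both widths.

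The limit of 5 members within 1 Mb falls in a continuous range. Of the single members, 100 had no other member within 1 Mb, and 14 sat in a group of at most 4. Those 14 held 273 anti-FLAG and 160 IgG tags, a ratio of 1.72 (1.41 to 2.10), and the 16 members just inside the limit, with at most 5, held 319 and 158, a ratio of 2.03 (1.67 to 2.47). The next 24 members, with at most 6, held 466 and 270, a ratio of 1.74 (1.49 to 2.02). For the 100 members alone within 1 Mb the ratio was 1.72 (1.59 to 1.86).

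Each of the 16 clusters, named by its chromosome and a letter where a chromosome holds several, had more anti-FLAG than scaled IgG tags over its promoters. The ratio of summed tags within 1 kb ran between 1.28 (0.898 to 1.84) in the 6 genes of cluster 7e and 2.38 (1.74 to 3.31) in the 5 genes of cluster 15. The lower limit was above 1 in all but 7e. GC-corrected, the intervals of cluster 6 at 1.11 (0.855 to 1.45), 7b at 1.04 (0.790 to 1.38) and 7e at 1.04 (0.727 to 1.49) included 1. Those of the other clusters lay above 1. The 20 genes on chromosome 13, the largest cluster, held 294 anti-FLAG and 217 IgG tags, a ratio of 1.36 (1.14 to 1.63), and 0 of 11 tested were higher, against the background of 29.5%. Zfp595, named after its values were seen, came nearest with 33 and 16 tags (adjusted exact p = 0.0508). Within 500 bp, 3 of 9 tested genes of that cluster were higher, against the background of 62.6%. The median GC of its 1-kb windows was 44.1%, against 49.2% in members. GC-corrected, its ratio within 1 kb was 1.28 (1.07 to 1.53), against 1.28 in members. Within 500 bp the GC-corrected ratio was 1.51 (1.19 to 1.93), against 1.53 in members. Cluster 7g, which holds Zfp719 and Zfp715, had the highest GC-corrected ratio within 1 kb at 1.77 (1.23 to 2.58). Cluster 15 followed at 1.70 (1.24 to 2.36), and 9a, which holds Zfp560, at 1.70 (1.25 to 2.31).

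The pairs below are the highest and lowest tested promoters of their clusters, so a spread between them follows from the choice. Whether promoters of a cluster spread beyond counting error was not tested. In cluster 6, Zfp282 had 29 anti-FLAG and 6 IgG tags and Zfp956 13 and 19. Cluster 7c held Zfp446 with 30 and 11 and Zfp551 with 14 and 21, and cluster 8 held Zfp866 with 35 and 15 and Zfp930 with 13 and 18. In 17a, Zfp948 had 35 and 10 and Zfp53 9 and 16, and in 17b Zfp871 had 28 and 8 and Zfp952 19 and 22. The first of each of these 5 pairs passed and the second did not (adjusted exact p), which does not test the difference between them. GC-corrected at 1 kb, Zfp948 passed (adjusted exact p = 0.0463). Zfp282 (0.112), Zfp446 (0.407), Zfp866 (0.537) and Zfp871 (0.156) did not. Zfp866 and Zfp871 have another TSS within 2 kb. In 9b the 3 tested promoters, led by Zfp653 with 22 and 5 tags, had log2 ratios down to 1.11 in Zfp599, but 2 of its 5 members were under the tag minimum, Zfp810 with 3 and 10 tags and Zfp872 with 7 and 7, both named after their values were seen.

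**Figure D3:**
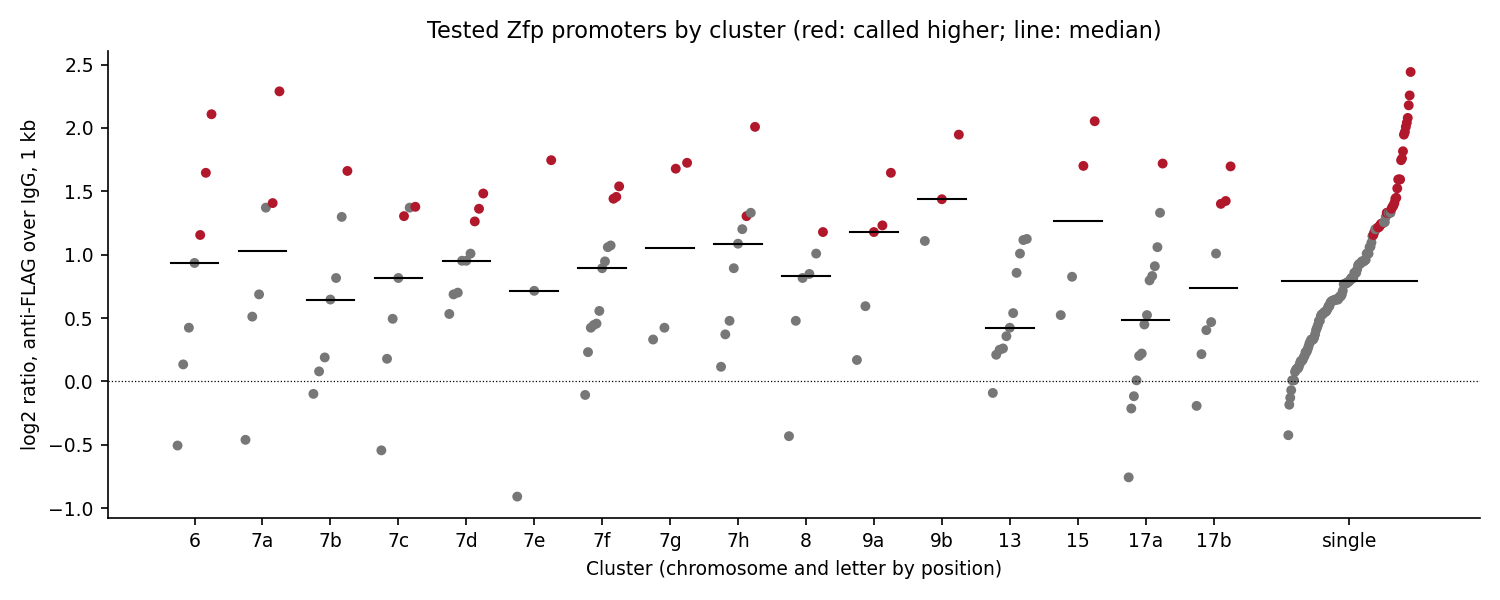
Log2 ratio of anti-FLAG over scaled IgG tags within 1 kb of the TSS, 1 dot per tested Zfp promoter, by cluster and for single genes (ordered by value within a column), red where called higher, with the median of each column as a line. The clusters overlap the range of the single genes, whose median is 0.79, and cluster 13 has no red dot.

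Closely spaced genes share their tags. Of the 337 members, 58 had another annotated TSS within 2 kb, 23 clustered and 35 single. In 5 pairs both start sites belong to members: Zfp942 and Zfp943 at 88 bp, Zfp944 and Zfp758 at 53 bp, the pair of Zfp664 IDs at 52 bp, Zfp646 and Zfp668 at 32 bp and Zfp882 and Zfp617 at 27 bp. Tags at these starts cannot be assigned to 1 gene, and sums over members count each base of shared windows once.

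Recovery followed GC content in the members as it did elsewhere. Within 500 bp, the 44 members under 45% GC had 191 anti-FLAG and 192 IgG tags, a ratio of 1.00 (0.815 to 1.23), against 0.983 over all such promoters. The 156 members of 45 to 55% GC had 1755 and 811, a ratio of 2.18 (2.00 to 2.37) against 1.87 (1.84 to 1.90). The 97 members of 55 to 65% had 1141 and 363, a ratio of 3.16 (2.81 to 3.57) against 2.87 (2.82 to 2.91). At 65% and above, 40 members had 321 and 77, a ratio of 4.19 (3.26 to 5.45) against 4.04. Members thus stood above all promoters of their band at 45 to 55%, where the intervals do not meet, and close to them elsewhere. GC-corrected, the members' ratios were 1.07, 1.64, 1.58 and 1.25 across the 4 bands, low to high, against 1.06, 1.41, 1.42 and 1.20 over all promoters. At 68% GC and above the nearest measured stratum of distant windows was used, which touches 24 members.

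**Figure D4:**
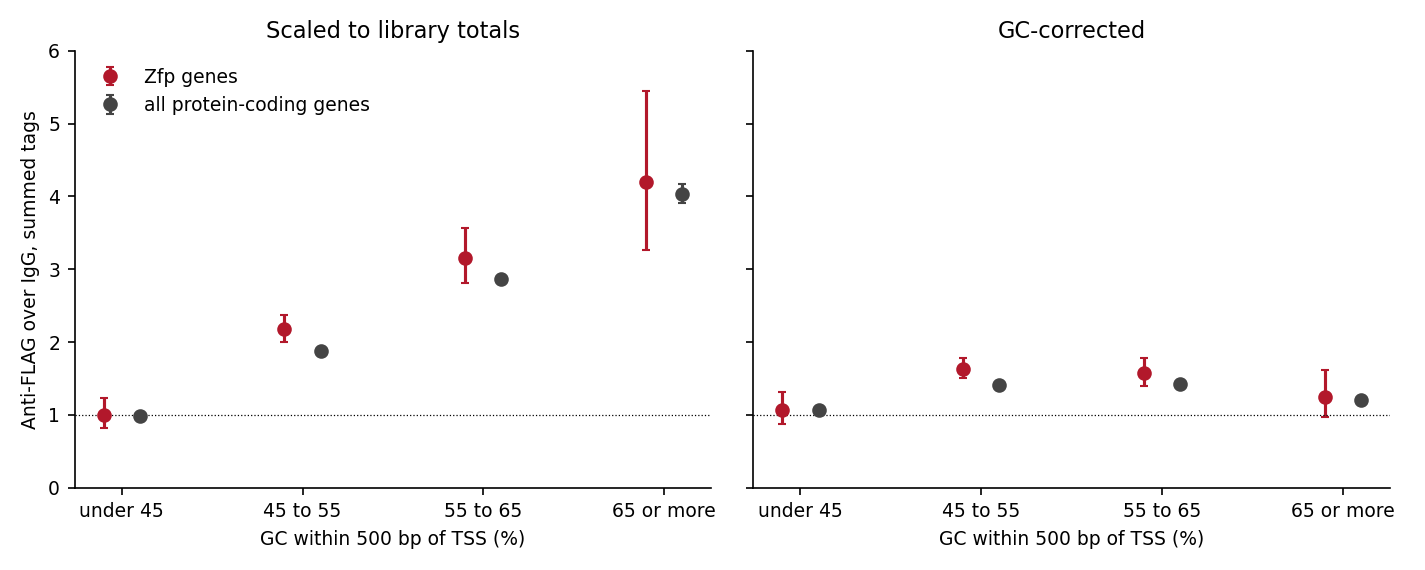
Ratio of summed anti-FLAG to IgG tags within 500 bp of the TSS by GC band, for Zfp genes (red) and all protein-coding genes (dark grey), scaled to library totals (left) and GC-corrected (right), with 95% exact binomial intervals. The uncorrected ratio of Zfp genes runs between 1.00 under 45% GC and 4.19 at 65% or more, and the corrected ratio between 1.07 and 1.64.

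Members with the words named above had ratios like those of other promoters with the same word. Within 500 bp, the 70 members with CCGGAAG had 900 anti-FLAG and 325 IgG tags, a ratio of 2.79 (2.45 to 3.17) against 2.93 (2.86 to 3.00) over all promoters with it. For ATGGCGG the ratio was 2.81 (2.28 to 3.49) in 30 members against 2.81 (2.71 to 2.92), and for GCGCATG 2.53 (2.04 to 3.15) in 26 members against 2.79 (2.69 to 2.90). For the word that Zfp719 carries on both strands, GCGCATG, the 311 members without it had a ratio of 2.36 (2.21 to 2.52), an interval that overlaps that of the members with it. For 3 other words it did not. Members with and without CCGGAAG had 2.79 and 2.26 (2.10 to 2.42). For GGGCGG these were 2.95 (2.65 to 3.29) and 2.11 (1.96 to 2.28), and for TGACG 2.74 (2.44 to 3.09) and 2.24 (2.08 to 2.41). GC-corrected, they were 1.56 and 1.52, 1.53 and 1.52, and 1.66 and 1.47, with overlapping intervals. Among the 176 members with a CpG ratio of at least 0.6 the value was 3.06 (2.80 to 3.35), and among the other 161 it was 1.80 (1.65 to 1.96). These groups differ in GC, and GC-corrected their ratios were 1.58 (1.45 to 1.73) and 1.46 (1.34 to 1.60).

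Last exons, taken whether or not they hold a finger array, had nearly equal tags of both libraries. They had a median length of 2181 bp in members, against 955 bp in other genes. Over all 337 they held 3505 anti-FLAG and 3443 IgG tags, 4.22 and 4.14 per kb, a ratio of 1.02 (0.977 to 1.07) against 1.12 (1.11 to 1.13) in other genes. Of 140 tested, 0 were higher and 0 lower (exact binomial test, adjusted over all tested last exons), against a background of 0.856% higher and 0.0779% lower. At an unadjusted exact p under 0.05, 19 of the 140 differed, 13 of them higher, against 438 of all 3853 tested last exons, 346 of them higher. GC-corrected, 0 were again higher and 0 lower, against 0.026% and 0% of all tested last exons, and the ratio was 0.978 (0.933 to 1.03) in members and 1.02 (1.01 to 1.03) in other genes. A region of anti-FLAG excess overlapped 2 last exons, 0.593% against a background of 0.917%. The last exon of 12 members reaches within 1 kb of its TSS.

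The last exon ratio was 0.978 (0.909 to 1.05) in clustered members, on 1459 anti-FLAG and 1501 IgG tags, and 1.06 (0.995 to 1.13) in single members, on 2046 and 1942. The clustered ratio was 0.923 times the single one (0.838 to 1.02), and GC-corrected 0.961 times (0.873 to 1.06). By cluster it ran between 0.744 (0.513 to 1.07) in 7b and 2.39 (1.30 to 4.59) in 7a. The intervals of clusters 13, 17a and 17b lay below 1, with ratios of 0.786 (0.638 to 0.966), 0.837 (0.700 to 0.999) and 0.746 (0.577 to 0.962), and GC-corrected 0.898 (0.730 to 1.10), 1.02 (0.856 to 1.22) and 0.799 (0.618 to 1.03). Those of 7a, 6, 7h, 7g and 7d lay above 1. The ratios of 7a, of 6 at 1.80 (1.27 to 2.58), of 7h at 1.63 (1.07 to 2.53) and of 7d at 1.34 (1.01 to 1.79) went to 1.21, 1.15, 1.01 and 1.00 GC-corrected, with intervals that include 1. After the correction 7g was at 1.65 (1.14 to 2.39) and 7b at 0.655 (0.452 to 0.945), and the intervals of the other 14 included 1.

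**Figure D5:**
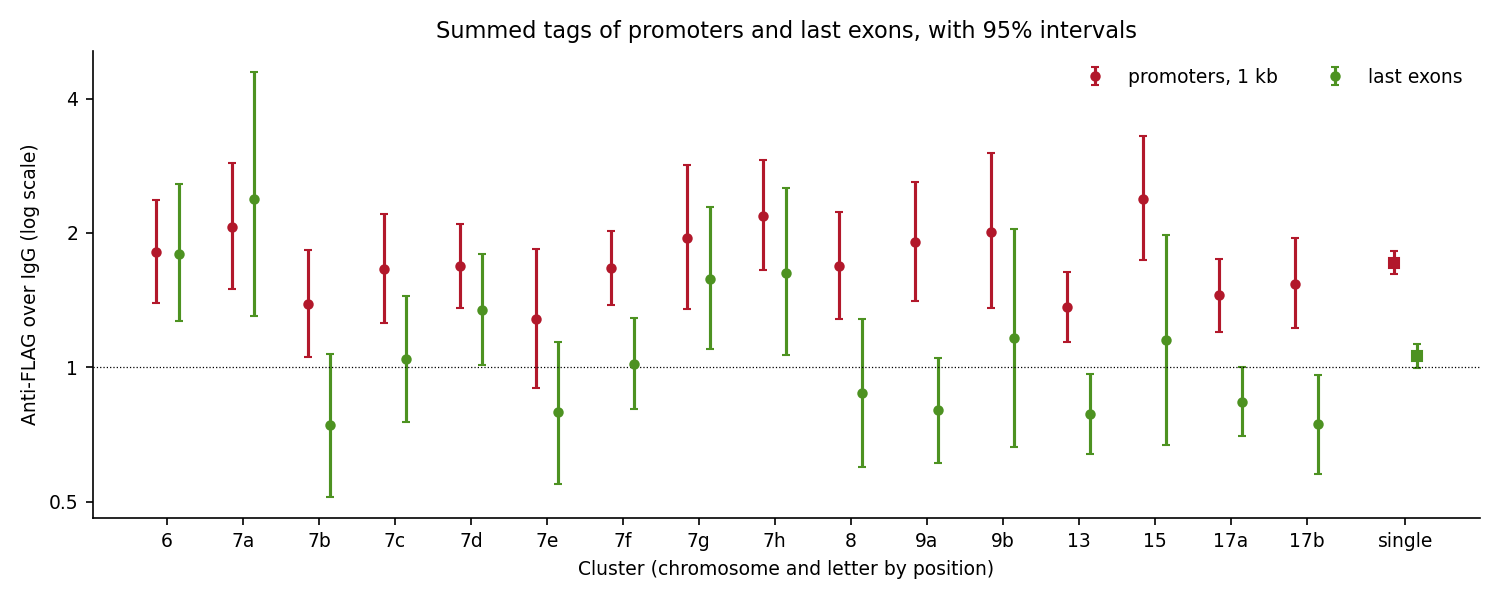
Ratio of summed anti-FLAG to scaled IgG tags (log scale) over promoters within 1 kb of the TSS (red) and last exons (green), for each cluster (dots) and for single genes (squares), with 95% exact binomial intervals. Promoters run between 1.28 and 2.38, while last exons lie on both sides of 1, between 0.744 and 2.39.

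No single last exon passed the test. Zfp658 had 19 anti-FLAG and 5 IgG tags (log2 ratio 1.75, adjusted exact p = 0.156), Zfp87 19 and 6 (1.52, 0.222), Zfp830 27 and 10 (1.36, 0.178) and Zfp703 19 and 7 (1.33, 0.308). Zfp830 has 1 exon only, so that its last exon starts at its promoter. At the other end, Zfp763 had 8 and 22 (-1.35, 0.286), Zfp26 19 and 44 (-1.16, 0.114), Zfp712 8 and 19 and Zfp58 8 and 18. The last exon of Zfp26 is 5689 bp long, which gives it the most tags of these 8.

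Fingers of one protein are joined by a conserved linker, whose codons give the word ACNGGNGANAANCC. It was absent from the last exon of 121 members and occurred at least 3 times in that of 180, 53.4%, against 125 of the 22013 other genes, 0.568%, and in 103 clustered members, 67.8%, against 77 single ones, 41.6%. The stretch below is the start of the array in Zfp114 (ENSMUSG00000068962.5), chr7:24966318-24966485 on the plus strand of NCBIM37, with the word in capitals. It is shown because, of the clustered last exons with at least 6 such words, this one has the lowest share of 36-base words found once in the genome, 28.7%.
Zfp114: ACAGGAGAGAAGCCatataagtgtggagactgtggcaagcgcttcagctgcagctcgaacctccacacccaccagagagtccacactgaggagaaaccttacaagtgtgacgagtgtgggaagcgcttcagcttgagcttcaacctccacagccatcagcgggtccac
In the arrays, between the first and last linker word of those 180 members, there were 596 anti-FLAG and 569 IgG tags, or 3.93 and 3.75 per kb, a ratio of 1.05 (0.938 to 1.18). The ratio was 1.04 (0.897 to 1.22) in clustered and 1.07 (0.887 to 1.28) in single members. Of the 36-base words in the arrays, 83.4% were found once in the genome, and repeated stretches cannot hold uniquely placed tags. Over all windows counted, 0.246% of anti-FLAG and 0.294% of IgG tags lay in words found more than once, against 8.67% of the words themselves, so both libraries hold almost no tags in exact copies. With members under 80% of such unique words left out, the ratio of summed tags was 1.73 (1.66 to 1.81) at promoters within 1 kb and 1.02 (0.971 to 1.07) over last exons.

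Other zinc finger families and the partners of the KRAB class were read in the same way. Within 1 kb, 8 of 27 tested Zbtb promoters, 3 of 11 Zscan and Zkscan promoters, 3 of 6 Klf promoters and 6 of 16 Zc3h promoters were higher (adjusted exact p), against the background of 29.5%, and 0 in each family GC-corrected, against 1.06%. Their ratios of summed tags were 2.06 (1.79 to 2.37), 1.58 (1.33 to 1.89), 2.43 (1.90 to 3.13) and 1.89 (1.61 to 2.24), against 1.69 for the members, and GC-corrected 1.15, 1.29, 1.23 and 1.28, against 1.28. Zbtb genes encode BTB-domain repressors, Klf genes Sp-like activators and repressors, and Zc3h genes RNA-binding CCCH proteins. Of 24 gene IDs of corepressors and heterochromatin factors, 20 were tested and 5 were higher, 25.0% against the same background of 29.5%. Their median log2 ratio was 1.02 against 0.88 over all tested. GC-corrected, 0 were higher, against 1.06%, and the median was 0.14 against 0.34 over all tested. The GC-corrected ratio of summed tags was 1.16 (0.986 to 1.37), against 1.20 in all protein-coding genes. Atf7ip (ENSMUSG00000030213.6), a partner of SETDB1, had 45 anti-FLAG and 18 IgG tags (adjusted exact p = 0.00631) and Morc2a, an ATPase of the same silencing route, 20 and 6 (0.0263). A further Atf7ip gene ID, ENSMUSG00000053935.6, had 4 and 7 tags, under the minimum. Morc3, the heterochromatin protein gene Cbx1 and the histone chaperone gene Daxx also passed, while Trim28 with 17 and 6 (0.0653) and Setdb1 with 14 and 10 did not.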

How the data were processed

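ChIP-seq tags were measured in 1 anti-FLAG and 1 IgG library, grouped by the antibody in the labels. As deposited, each line is the position and strand of 1 mapped tag of 36 bases. The constant score column was not used. No tags of a library share position and strand, so duplicates are absent. The aligner, genome build and read filters were not given in the sources used here. Tag positions fitted the chromosome lengths of NCBIM37, with 1 anti-FLAG tag beyond an end, and the GENCODE annotation of that build was used.

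Tags were moved 72 bp downstream and counted within 500 bp and 1 kb of each TSS and over the last exon of the coding transcript with the longest coding sequence. The IgG library was multiplied by 0.994, which equals the library totals of the autosomes and X. Features with 20 tags or more got a 2-sided exact binomial test conditional on their total, with Benjamini-Hochberg adjusted p under 0.05 as the call, over all protein-coding genes that reached the minimum. A pseudocount of 1 tag entered each log2 ratio. For the GC correction, the expected ratio was multiplied by that of 500-bp windows more than 10 kb from annotated starts, by strata of 2 GC points. Regions joined 500-bp windows (step 250 bp) that held 10 or more anti-FLAG tags, passed 2-fold over local background and had a one-sided exact Poisson p below 1e-05. There were 5964, and 165 with the libraries swapped. Words of 36 bases were counted over both strands of the genome. Named members were the 6 highest and 4 lowest promoters of each class, those past the GC-corrected test, the highest and lowest of each cluster, the 4 highest and 4 lowest last exons, a list of well-known members, and the 2 corepressor genes of smallest p; Morc3, Cbx1, Daxx, Trim28 and Setdb1 were named outside this rule. The members and lists were chosen with earlier results of these data known. Scripts used Python 3.11.15, NumPy 2.4.6, SciPy 1.17.1, statsmodels 0.14.6, numba 0.67.0, pandas 2.3.3 and Matplotlib 3.10.9, and were tested on simulated data. There, GC-corrected at 1 kb, 2 of 50 promoters with a planted 2-fold difference were called, and 19 of 50 with a 4-fold one. Over last exons without the correction, 5 of 50 and 27 of 50 were called. A promoter or last exon that was not called can thus still differ 2-fold. Alternatives changed the scaling, GC correction, shift, tag minimum, added tag, promoter width, neighbouring start sites, unique words, last exon and cluster definition.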

Additional observations from a re-analysis of the deposited data

How the results depend on the processing

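The promoter ratios of members stayed above 1 under the alternatives run, while some values near 1 crossed it. The clustered promoter ratio, 0.968 times the single one, moved to 1.10 with the GC correction (and to 0.847 at 500 bp). It moved to 1.00 without members that have another TSS within 2 kb. At 500 bp the GC correction moved this clustered over single ratio from 0.847 to 1.01. The last exon ratio of members, 1.02, moved to 0.978 with the GC correction, and that of single members from 1.06 to 0.994. The clustered over single promoter ratio stayed between 0.952 and 0.995 when each of the 16 clusters was left out in turn. The clustered over single last exon ratio stayed between 0.895 and 0.953. The ratio of summed tags of members at 1 kb moved to 1.85 with scaling on background bins, 1.28 with the GC correction, 2.38 at 500 bp and 1.35 at 2.5 kb either side. The count of higher members at 1 kb moved to 1 with the GC correction and 33 at 2.5 kb. It moved to 26 with at least 40 tags, a minimum that left fewer members tested. At 500 bp the ratio moved to 2.60 with background bins and 1.53 with the GC correction, and the count to 9 with the GC correction and 87 with at least 10 tags. With at least 40 tags no member could be tested at 500 bp. The last exon ratio moved to 1.12 with background bins. Of the values of the members named in the text or chosen by its rule, 946 kept their side of the threshold, of which 36, none of them called, changed sign, 15 with the GC correction; 62 lost their call and 24 gained one. The cause of these moves was not tested. Leaving out last exons within 1 kb of the TSS was added after seeing the data. No paired analysis was possible because there is 1 library per antibody and the labels give no replicate numbers.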
